A study of Mus musculus with 4 samples.

Results

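The 10 genes described here encode parts of the vascular basement membrane: the collagen IV chains Col4a1 and Col4a2, the laminin chains Lama4, Lama5, Lamb1 and Lamc1, the nidogens Nid1 and Nid2, the heparan sulfate proteoglycan perlecan (Hspg2), and the collagen Col15a1. They were grouped by the protein they encode and are 10 of the 27998 genes in the count tables. Each was detected in all 4 libraries. Their levels were compared across 4 stages of the mouse heart and across cell classes set by a few marker genes.

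The study sequenced single cardiac endothelial cells to follow the states that lead to coronary arteries. Each stage is 1 library of CD31+/CD45- cells from hearts of C57Bl6J mice, with animals pooled: 37 at embryonic day 12 (E12), 48 for E15, 21 at postnatal day 2 (P2) and 6 adults of 8 weeks. No allele or agent is named for any group. The sorted cells were frozen before droplet capture, E12 and E15 hearts were digested with collagenase/dispase alone while P2 and adult hearts first received collagenase II, and thawed E12 and E15 cells passed a dead cell removal kit while P2 and adult cells were sorted again. With 1 library per stage there is no replicate, so no test between conditions was possible, and stage cannot be told apart from library, digestion or depth. Levels are UMIs (unique molecular identifiers, 1 per captured transcript) per 1000000 UMIs of a cell class (CPM). Brackets hold 95% intervals that cover counting error only.

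A basement membrane is the thin sheet of matrix on which endothelial cells sit. Laminins and collagen IV each assemble into a network, nidogens and perlecan link the networks, and collagen XV lies at the outer face of the sheet. In capillaries the sheet is shared with pericytes and borders the cardiomyocytes, and it is built and remodelled as vessels sprout.

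Cells were placed in classes by UMIs of marker genes. Endocardial cells, which line the heart chambers, held more Npr3 and Tmem108 UMIs than Fabp4, Cldn5 and Aplnr UMIs (1716 cells at E12, 2115 for E15, 1082 for P2 and 75 for the adult). Coronary cells held 2 or more Fabp4, Cldn5 and Aplnr UMIs and more of them than of the endocardial pair (113, 1254, 4596 and 4077 cells). The artery class held 3 or more Cxcl12, Glul, Alpl and Nebl UMIs (332, 69, 711 and 1875 cells). The non-endothelial class had no Pecam1, Cdh5 or Egfl7 UMI (2995, 1867, 13 and 133 cells). Classes may overlap. Median depth was 1241 UMIs per cell at E12, 1013 for E15, 4532 for P2 and 1510 for the adult.

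Several classes went against their names. At E12 no cell of the artery class was coronary, 77.4% had no endothelial UMI, and fibroblast or mesenchyme markers summed to 3628 CPM in it, against 309 in coronary cells. At E15 59.4% of the artery class lacked an endothelial UMI and the same markers summed to 7114 CPM. The E12 and E15 artery classes are therefore called Cxcl12/Glul cells below. At P2 95.5% of the artery class was also coronary, and Gja5, a connexin of arterial endothelium that the rule did not use, stood at 123 CPM in it against 10.4 in other coronary cells. In the adult the class took 44.2% of all cells and Gja5 stood at 64.1 against 27.5 CPM. Of other arterial genes outside the rule, adult Gja4 stood at 88.5 against 38.2 CPM and Hey1 at 198 against 53.6. Bmx went the other way, at 18.6 against 22.0. Cxcl12, a gene of the rule, stood at 409 CPM in other adult coronary cells and 13.5 in those of P2, so the adult contrast is weaker. The non-endothelial class at P2 has 13 cells, 11 of them also coronary. In the adult 101 of its 133 cells (75.9%) also met the coronary rule and Fabp4 stood at 6169.6 CPM in it. Meeting this rule does not make them coronary cells. At P2 9 of the 13 (69.2%) held 3 or more Col1a1, Col1a2 and Col3a1 UMIs, as did 40 (30.1%) in the adult. Col1a1 stood at 1911 CPM in the P2 class against 17.3 in coronary cells, and Fabp4 at 2240 against 14102. At E15 9.69% of the class was also coronary. Of endocardial cells, 34.7% for E12 and 25.8% for E15 had no endothelial UMI. Many cells lie at the edge of a rule: 63.9% of endocardial and 59.3% of coronary cells at E12 were 1 UMI or less inside it, against 17.0% and 3.09% for P2. Between 25 and 60 cell barcodes were shared by any pair of libraries, where chance matches would give between 33.0 and 48.4.

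Free RNA carried these transcripts too. In E12 barcodes with 100 UMIs or fewer, taken as empty droplets, Col4a1 stood at 333 CPM, Nid1 at 185 and Hspg2 at 190.4, against 449, 207 and 179 in endocardial cells. Lama4 stood at 79.5 CPM there, above its 50.9 in endocardial and 32.9 in coronary cells, and Col4a2 at 237, against 231 and 235. The part of free RNA in the E12 to E15 ratios of both was not tested. Col15a1 stood at 19.2 CPM in the empty droplets, above its endocardial level of 3.64. The 38 barcodes with 20 or more hemoglobin UMIs, red cells that should lack the genes, give the background for shares of cells: thinned to 500 UMIs each, 5.26% of them held any of the 10 transcripts, against 44.9% of endocardial and 46.0% of coronary cells. Median depths were 1834, 1276 and 1997 UMIs, and unthinned the shares were 13.2%, 76.0% and 86.7%. E15, P2 and adult libraries held 6, 0 and 1 such barcodes, too few for a background of their own. Thinning left out 17 endocardial cells at E12 and 100 for E15, 66 coronary cells at E15, and none of these classes later.

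Summed over the 10 genes, coronary cells held more of these transcripts than endocardial cells from E15 on, and the gap was widest in the adult. By median ratio, other listed basement membrane parts went the other way, at 0.519 for E15, 0.560 for P2 and 0.654 for the adult. A median is not a sum, and the sums of these other parts were not compared. At P2 3 of 18 had a ratio of 2 or more and 8 a ratio of 0.5 or less. Sparc, among the higher ones, stood at 4147 CPM in coronary against 1660 in endocardial cells. The 10 genes summed to 1404 CPM in coronary and 1265 in endocardial cells at E12, 2418 and 1689 for E15, 2382 and 1614 for P2, and 2235 and 809 for the adult. The ratio of the sums went from 1.11 (0.990 to 1.24) for E12 to 2.76 (2.37 to 3.23) for the adult. Col4a1, Col4a2 and Hspg2 took most of the adult coronary sum. Of single genes in the adult, 5 of 10 had a ratio with an interval above 1 and none had one below 1. Lama4, Lamb1, Lamc1 and Nid2 had adult ratios between 0.785 and 1.13. A gene was called higher or lower at a ratio of 2 or more, or 0.5 or less, where both classes together held at least 20 of its UMIs. By this rule 2 of 9 genes were higher in coronary cells at E12, where 5.37% of all genes were, 2 of 9 for E15 (5.66% of all genes), 2 of 10 for P2 (11%) and 4 of 10 for the adult (12.2%). No member was called lower at any stage, where 17.4%, 12.4%, 10.4% and 13.9% of all genes were. Stricter class limits left 33 coronary cells at E12, and both Col15a1 and Nid2 then had under 20 UMIs. The median ratio of all genes was 0.905 for E12, 0.914 for E15, 0.943 for P2 and 0.947 for the adult, below the members' medians of 1.10, 1.39, 1.34 and 1.60. Fibroblast or mesenchyme markers, of which endocardial cells held 9 of 9 up to P2 and 6 of 9 for the adult, summed to 1437, 1354, 1845 and 3774 CPM over the 4 stages in endocardial cells and 309, 476, 496 and 722 in coronary cells. Col1a1, of this list, went with the sum at E12 (262 against 57.6 CPM) and E15 (270 against 108). It went the other way at P2 (11.8 against 17.3) and in the adult, with 0 UMIs in endocardial cells against 29.9 CPM in coronary cells. The part of these markers in the ratios was not tested. With an endothelial UMI required of every cell the counts of members past 2-fold were unchanged in this comparison, and the adult Col4a1 ratio was 5.04. The cells called coronary at P2 include 19.4% that also held an Npr3 or Tmem108 UMI.

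**Figure D1:**
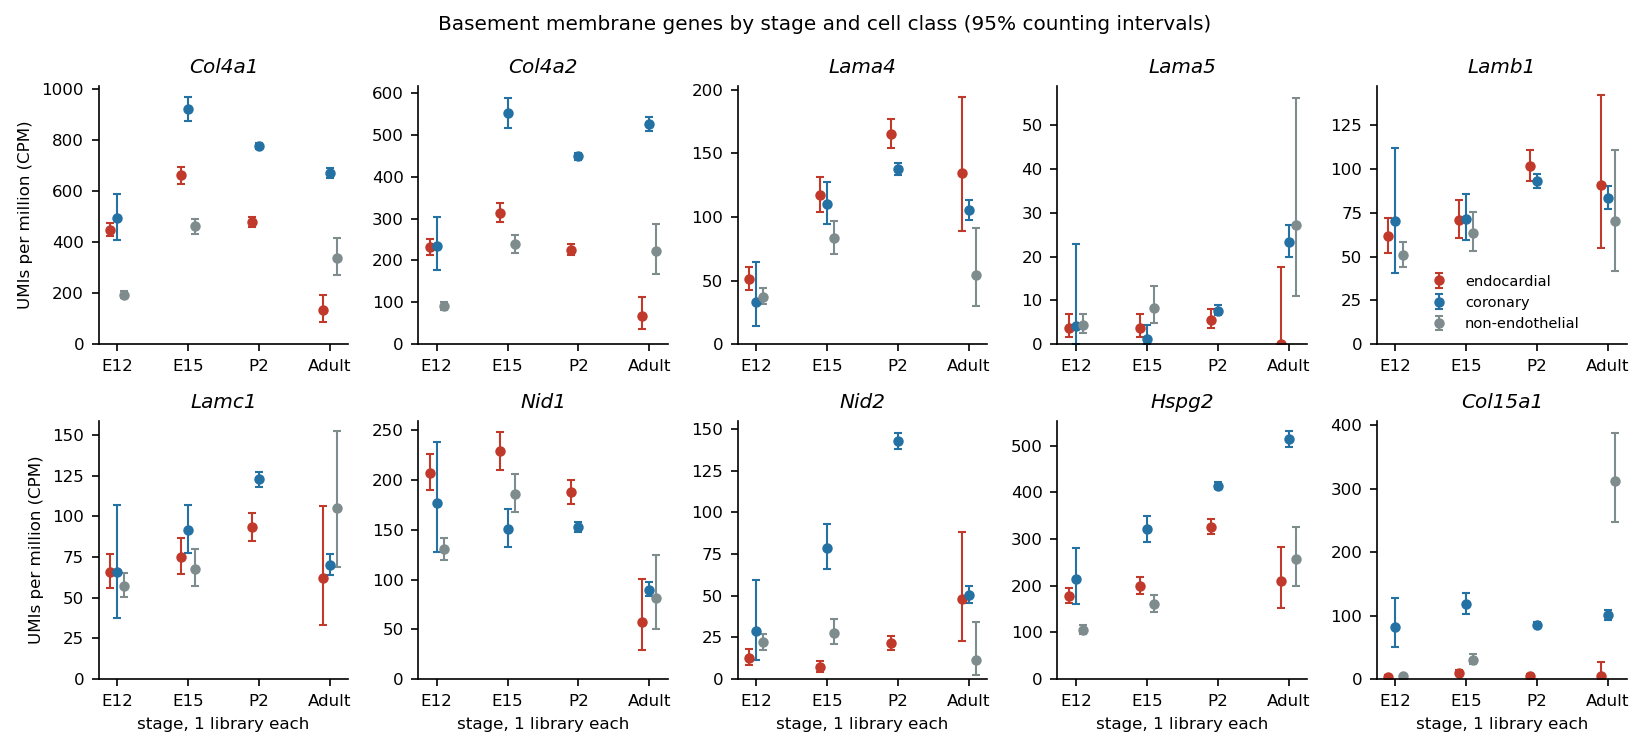
CPM of the 10 genes (vertical axis, from 0) at the 4 stages (horizontal axis) in endocardial, coronary and non-endothelial cells; points are 1 library each, bars 95% counting intervals, and the 13 non-endothelial cells of P2 are left out. Col15a1 stood at 82.3 CPM or more in coronary cells and at 10.2 or less in endocardial cells at every stage, and Col4a1 stood at 134 CPM in adult endocardial cells.

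**Figure D2:**
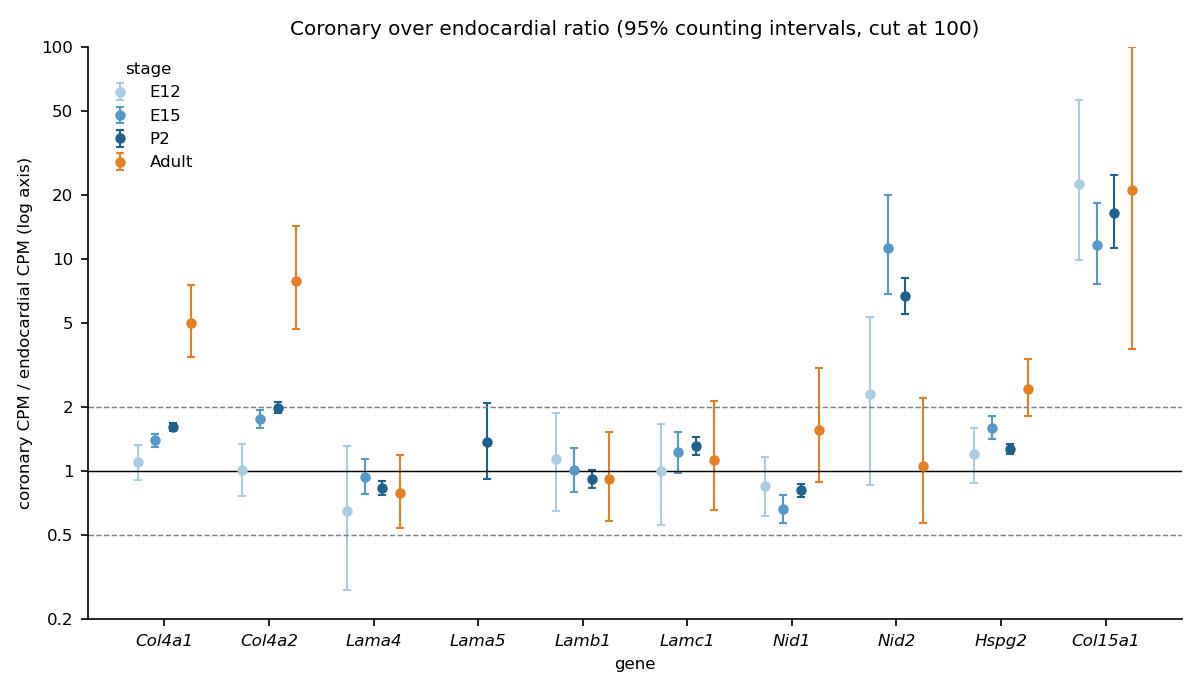
Ratio of coronary to endocardial CPM (log axis) for each gene and stage, with 95% counting intervals cut at 100 and dashed lines at 0.5 and 2; genes with under 20 UMIs or a class at 0 are not drawn. Col15a1 lay above 10 at all 4 stages and Nid2 above 5 for E15 and P2, while the laminin ratios drawn stayed between 0.5 and 2. Adult Lama5, with 0 endocardial UMIs, is not among them.

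Col4a1 and Col4a2 encode the α1 and α2 chains of the collagen IV of most vessels. Both are on chromosome 8 of mm10, Col4a1 at chr8:11198423-11312826 on the minus strand and Col4a2 at chr8:11312805-11449287 on the plus strand, so that they start head to head. In the RefSeq promoter windows (GRCm38.p6) the annotated starts lie 21 bases apart, and the stretch that spans both starts is shown because the levels of the pair went together. It is chr8:11312705-11312946 on the plus strand. Capitals mark each match, on either strand, to the CCAAT box, to the GC box GGGCGG with its reverse complement, and to the pyrimidine-rich letters CCCTCCCC.
Col4a1/Col4a2 start region: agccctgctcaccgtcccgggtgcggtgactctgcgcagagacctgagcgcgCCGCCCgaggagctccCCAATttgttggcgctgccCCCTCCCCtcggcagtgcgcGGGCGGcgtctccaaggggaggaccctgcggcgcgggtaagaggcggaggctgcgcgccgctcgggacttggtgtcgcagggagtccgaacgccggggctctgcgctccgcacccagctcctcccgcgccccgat
It holds 1 CCAAT box, 2 GC boxes and 1 pyrimidine-rich match, none of which overlap, and 74.0% of its bases are G or C. Of all 32851 promoter windows of 300 bases, 37.4% hold a CCAAT box, 35.7% a GC box and 10.8% the pyrimidine-rich letters. A match is a description of these letters and not of a bound factor.

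Col4a1 in endocardial cells stood at 449 (E12), 662 (E15), 481 (P2) and 134 CPM (adult). In coronary cells it stood at 494 (E12), 922 (E15), 777 (P2) and 671 CPM (adult). The 2 classes overlapped within counting error at E12 and were apart at the other stages. The coronary over endocardial ratio of Col4a1 was 1.10 (0.903 to 1.33) for E12, 1.39 (1.30 to 1.49) for E15, 1.62 (1.55 to 1.69) for P2 and 5.00 (3.46 to 7.54) for the adult. Col4a2 went the same way, from 1.01 (0.759 to 1.33) for E12 over 1.76 (1.60 to 1.94) for E15 and 1.99 (1.87 to 2.11) for P2, just inside the limit of 2, to 7.84 (4.66 to 14.3) for the adult. The adult ratio was larger than that of P2 by a factor of 3.09 (2.13 to 4.50) for Col4a1 and 3.95 (2.33 to 6.69) for Col4a2. Only 28 Col4a1 and 14 Col4a2 UMIs stand behind the adult endocardial values.

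Both classes changed between stages, and the wider adult ratios went with a fall in endocardial cells. From E12 to E15 Col4a1 went up by a ratio of 1.87 (1.55 to 2.27) in coronary and 1.47 (1.37 to 1.59) in endocardial cells, and Col4a2 by 2.35 (1.80 to 3.13) and 1.36 (1.22 to 1.52). From P2 to the adult, endocardial Col4a1 went down to 0.279 (0.185 to 0.404) of its level and Col4a2 to 0.297. In coronary cells over the same step the ratios were 0.864 (0.836 to 0.891) and 1.17 (1.13 to 1.22), on opposite sides of 1. Counts of members called between stages are given further on. The 3′ end of Col4a1 overlaps the antisense gene Gm15418. The strand setting of the counting is not given in the sources used here, and whether reads of the 2 were kept apart was not checked.

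The α2 chain took a larger part of the pair's UMIs in adult coronary cells than at the earlier stages, which overlapped within counting error. Col4a2 made up 32.2% (25.4 to 39.6) of Col4a1 and Col4a2 UMIs at E12, 37.5% (35.6 to 39.4) for E15, 36.6% (36.1 to 37.2) for P2 and 43.9% (42.9 to 45.0) for the adult. In endocardial cells the share was 34.0% (31.7 to 36.3), 32.2% (30.3 to 34.1), 32.0% (30.5 to 33.5) and 33.3% (19.6 to 49.5). The coronary share was above the endocardial share at E15 and P2, and the adult endocardial interval is too wide to place it. The share is of UMIs at the 3′ ends of 2 genes and does not give the ratio of chains in the protein. In the same coronary cells, thinned to 500 UMIs, Col4a2 was found in 27.9% (25.5 to 30.3) of P2 cells with a Col4a1 UMI and 18.9% (17.6 to 20.3) of cells without one.

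**Figure D3:**
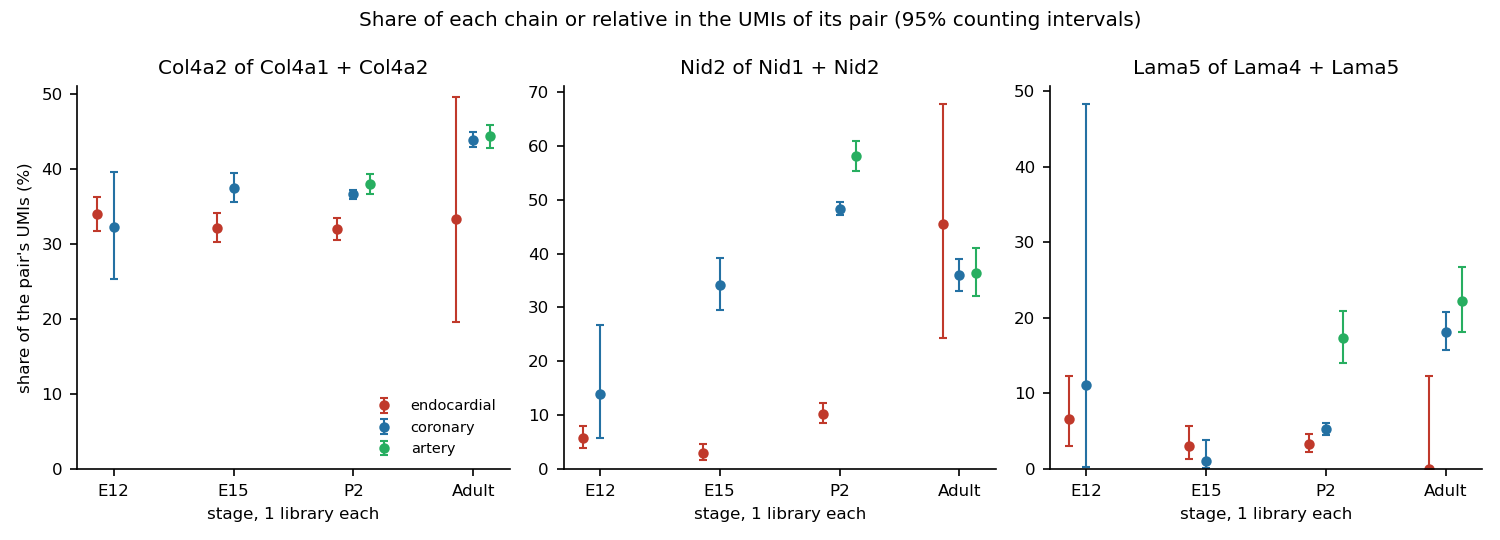
Share of a pair's UMIs (percent, from 0) taken by Col4a2, Nid2 and Lama5 at each stage in endocardial, coronary and artery cells, with 95% counting intervals; the artery class is drawn for P2 and the adult only. Nid2 took 48.4% of nidogen UMIs in P2 coronary cells against 10.2% in endocardial cells, and the Lama5 share in the P2 artery class was 17.3%.

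The laminin chains Lama4, Lamb1 and Lamc1 differed little between coronary and endocardial cells, and Lama5 is described after them. Lama4 encodes the α4 chain of endothelial laminins and Lamb1 and Lamc1 the β1 and γ1 chains that join it. Lama4 stood at 50.9 (E12), 117 (E15), 165 (P2) and 134 CPM (adult) in endocardial cells and at 32.9 (E12), 110.1 (E15), 137 (P2) and 105 CPM (adult) in coronary cells. Its coronary over endocardial ratio lay between 0.646 and 0.939, and only at P2, at 0.831 (0.771 to 0.897), did the interval leave 1. Lamb1 ratios lay between 0.915 and 1.14 with every interval covering 1. Lamc1 ratios lay between 0.999 and 1.32, and the P2 value of 1.32 (1.20 to 1.45) was the only one apart from 1. In time, Lama4 went up from E12 to E15 in both classes, by 2.30 (1.86 to 2.86) in endocardial and 3.34 (1.66 to 7.86) in coronary cells, the latter from 8 UMIs at E12. With cells thinned to 500 UMIs the coronary value of Lama4 turned to 0.756, from 2 UMIs at E12, so its direction is not settled. Lamc1 in coronary cells went down from 123 CPM at P2 to 70.2 for the adult, a ratio of 0.572 (0.520 to 0.629).

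Lama5, the α5 laminin chain of mature vessels, gave few UMIs, and its level in coronary cells was higher at P2 and in the adult than at E15. It stood at 4.12 (E12), 1.19 (E15), 7.65 (P2) and 23.4 CPM (adult) in coronary cells, from 1, 2, 181 and 168 UMIs. The P2 over E15 ratio was 6.43 (1.75 to 53.5) and the adult over P2 ratio 3.05 (2.46 to 3.79), while the rise at P2 rests on the 2 UMIs of E15. Among coronary cells with at least 5 coronary marker UMIs per 1000, a limit added after the data were seen, the P2 over E15 ratio was 2.78. Lama5 made up 1.07% (0.130 to 3.81) of Lama4 and Lama5 UMIs in coronary cells at E15, 5.27% (4.55 to 6.08) for P2 and 18.2% (15.7 to 20.8) for the adult. In endocardial cells it stood at 5.60 CPM at P2, and adult endocardial cells held 0 UMIs of it in 208774, which at a floor of 3 counts allows 14.4 CPM and puts the coronary level at least 1.63-fold higher. The exact 95% limit is wider, at 17.7 CPM, and the lower end of the ratio’s 95% interval is 1.31. A Lama5 UMI was found in 1.64% of thinned adult coronary cells and 3.95% unthinned.

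The 2 nidogens, which bind laminin γ1 and collagen IV, went separate ways. Nid1 in endocardial cells stood at 207 (E12), 229 (E15), 188 (P2) and 57.5 CPM (adult), and in coronary cells at 177 (E12), 151 (E15), 152 (P2) and 90.0 CPM (adult). Its coronary over endocardial ratio was below 1 for E15, at 0.660 (0.567 to 0.767), and at P2, at 0.811 (0.755 to 0.871). From P2 to the adult Nid1 went down in both classes, to 0.591 (0.542 to 0.642) in coronary and 0.306 (0.157 to 0.537) in endocardial cells. Nid1 was thus lowest in the adult in both classes, with no overlap with the earlier stages.

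Nid2 was higher in coronary than in endocardial cells at E15 and P2, while the interval of the ratio covered 1 at E12 and in the adult. In coronary cells it stood at 28.8 (E12), 78.6 (E15), 143 (P2) and 50.5 CPM (adult), and in endocardial cells at 12.5 (E12), 6.95 (E15), 21.4 (P2) and 47.9 CPM (adult). The coronary over endocardial ratio was 2.30 (0.855 to 5.32) for E12, from 7 coronary UMIs, then 11.3 (6.80 to 20.0) for E15, 6.66 (5.51 to 8.12) for P2 and 1.05 (0.567 to 2.22) for the adult. The fall from P2 to the adult came to a factor of 0.158 (0.0821 to 0.305). From E12 to E15 the coronary ratio of Nid2 was 2.73 (1.29 to 6.91), and 0.608 in thinned cells with 2 UMIs at E12. In coronary cells the adult over P2 ratio of Nid2 was 0.354 (0.317 to 0.394), while in endocardial cells it was 2.24 (1.04 to 4.27), from 10 adult UMIs. Nid2 took 34.2% (29.5 to 39.2) of nidogen UMIs in E15 coronary cells and 2.95% (1.73 to 4.68) in E15 endocardial cells. At P2 the shares were 48.4% (47.2 to 49.5) and 10.2% (8.49 to 12.2). Among thinned P2 cells 6.38% of coronary and 0.555% of endocardial cells held a Nid2 UMI, and unthinned 41.7% and 8.96%. The 3′ end of Nid2 overlaps Rtraf on the other strand, so the same limit of strand holds for it as for Col4a1.

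Perlecan, which carries heparan sulfate chains that bind growth factors, was higher in coronary cells at each later stage, although relative to the median of all genes the P2 over E15 ratio of Hspg2 was 1.03. Hspg2 stood at 214 (E12), 321 (E15), 414 (P2) and 515 CPM (adult) in coronary cells, with no overlap from E15 on. In endocardial cells it stood at 179 (E12), 200.3 (E15), 327 (P2) and 211 CPM (adult), highest at P2. Its coronary over endocardial ratio was 1.20 (0.881 to 1.60) for E12, 1.60 (1.41 to 1.81) for E15, 1.27 (1.20 to 1.34) for P2 and 2.44 (1.82 to 3.37) for the adult. From P2 to the adult it went up by 1.24 (1.20 to 1.29) in coronary cells and down to 0.645 (0.467 to 0.870) in endocardial cells.

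Col15a1, which encodes a collagen with an endostatin-like end, separated coronary from endocardial cells at every stage. In coronary cells it stood at 82.3 (E12), 118 (E15), 85.5 (P2) and 101 CPM (adult), and in endocardial cells at 3.64 (E12), 10.2 (E15), 5.21 (P2) and 4.79 CPM (adult). The ratio was 22.6 (9.85 to 56.4) for E12, 11.6 (7.63 to 18.3) for E15, 16.4 (11.2 to 25.0) for P2 and 21.1 (3.77 to 833) for the adult, where endocardial cells held 1 UMI. Ranked by this ratio among the genes tested, Col15a1 was number 7 of 8803 for E12, 60 of 9639 for E15, 82 of 12548 for P2 and 41 of 10716 for the adult. In thinned cells it was found in 3.74% of coronary and 0.185% of endocardial cells at P2, and unthinned in 25.6% and 2.13%. The coronary levels at E12 and E15 overlapped within counting error, as did those for E12 and P2, E12 and the adult, and E15 and the adult, while P2 lay below both E15 and the adult. Its RefSeq promoter window, at chr4:47207762-47208061 of GRCm38.p6 on the plus strand, holds none of these 3 motifs on either strand, and 52.3% of its bases are G or C. In the GENCODE annotation the gene starts at base 47208161, past the end of this window, so the window does not hold that start. Of the 10 genes 7 had a window, with Lama4, Lamc1 and Nid2 not analysed here. In the other 6 the G and C share lay between 63.7% and 74.0% and the GC box was found at least once. Those 6 windows hold the GENCODE starts of their genes, and the part of window placement in the contrast with Col15a1 was not tested.

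Between stages, few members passed 2-fold. In coronary cells 3 of 9 were higher at E15 than at E12 (Lama4, Nid2 and Col4a2), where 11.7% of all genes were, and none was lower (5.21% of all genes). The Lama4 and Nid2 calls rest on 8 and 7 UMIs at E12 and turned the other way in thinned cells, as given above. From E15 to P2 Lama5 alone of 10 was higher (17.1% of all genes) and none was lower (5.44%). From P2 to the adult Lama5 was higher (11.4%) and Nid2 lower (13.4%). In endocardial cells Lama4 and Col15a1 of 9 were higher at E15 than at E12 (3.85%) and none was lower (4.79%). Both calls were lost with stricter class limits, where Lama4 stood at 1.93, only Lama4 was called in thinned cells, at 2.13, and with an endothelial UMI required Nid2 was past 2-fold lower, at 0.405. Nid2 of 10 was higher at P2 than at E15 (12.9%) and none was lower (5.7%). In the adult Nid2 of 10 was higher than at P2 (10.8%) and Col4a1, Col4a2 and Nid1 were lower (11.5%). Shares near the background are no result about the members. The median ratio of all genes from E15 to P2 was 1.25 in coronary and 1.18 in endocardial cells, and relative to it the coronary ratios were 0.672 for Col4a1, 1.03 for Hspg2, 1.45 for Nid2 and 0.804 for Nid1. Immediate-early genes, which rise during dissociation, summed to 313, 609, 3757 and 5445 CPM in coronary cells over the 4 stages, all 5 of 5 listed genes with UMIs, and their part in the stage ratios was not tested.

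The P2 artery class differed from other coronary cells most in Lama5. Lama5 stood at 21.6 CPM (17.2 to 26.7) there and at 4.82 CPM (3.91 to 5.89) in other coronary cells, a ratio of 4.47 (3.30 to 6.05), number 74 of 12243 genes from the top. It was the 1 of 10 members past 2-fold higher, as were 3.01% of all genes, and none was lower (5.12%). Nid2, at 182 against 134 CPM, had a ratio of 1.37 (1.26 to 1.48). Col4a1, Col4a2 and Hspg2 were also higher, at 1.09 (1.05 to 1.13), 1.17 (1.12 to 1.23) and 1.17 (1.11 to 1.23). Col15a1, at 0.673 (0.586 to 0.771), Lamb1, at 0.710 (0.623 to 0.806), Lama4, at 0.714 (0.642 to 0.793), and Nid1, at 0.842 (0.766 to 0.925), were lower. Among the 514 P2 artery cells that were also coronary and held a Gja4, Gja5, Hey1 or Bmx UMI, a limit added after the data were seen, the Lama5 ratio was 5.72. With cells thinned to 500 UMIs the class shrank to 160 cells and Lama5 fell under the minimum of 20 UMIs.

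In the adult all 10 members were lower in the artery class than in other coronary cells. None passed 2-fold higher (2.17% of all genes) or lower (3.35%). The ratios ran from 0.536 (0.461 to 0.623) for Col15a1 to 0.940 (0.687 to 1.29) for Lama5, and 9 of the 10 intervals lay under 1. Col15a1 stood at 73.3 CPM against 137, and Hspg2 at 429 against 601. The Lama5 ratio went down between P2 and the adult by a factor of 0.210 (0.138 to 0.320). The class took 12.1% of all cells at P2 and 44.2% in the adult, so the groups behind the 2 ratios are unlike. Among the 658 adult artery cells that were also coronary and held a Gja4, Gja5, Hey1 or Bmx UMI, 3 members passed 2-fold lower. They were Col15a1 at 0.283, Lama4 at 0.373 and Lamb1 at 0.445. The share of all genes past 2-fold under this limit is not given here, so the count is no result about the members.

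The Cxcl12/Glul cells of E12 and E15, mostly without endothelial UMIs, held less of the member collagens Col4a1, Col4a2 and Col15a1. For E15 Col4a1 and Col4a2, at 0.659 and 0.635, did not pass 2-fold. Interstitial matrix genes, fibrillar collagens among them, went the other way. Of those tested, 12 of 13 were past 2-fold higher at E12 (median ratio 3.73) and 13 of 14 for E15 (median ratio 11.5). At E12 Col4a1, Col4a2, Hspg2 and Col15a1, 4 of 8 members tested, were past 2-fold lower than in coronary cells (9.33% of all genes) and none was higher (18.2%). Col4a1 stood at 149 CPM (119 to 184) in them and at 494 CPM (409.5 to 591) in coronary cells. At E15 Lama4, Lamb1, Hspg2 and Col15a1 of 9 were lower (13.4%) and none was higher (11.7%), with 3, 3, 17 and 1 UMIs in the class. With cells thinned to 500 UMIs no member reached 20 UMIs at E12, so all 4 calls were lost. At E15 thinning left 8 cells with 4000 UMIs, and 0 members were lower and 4 higher. The share of all genes there is not given, so the counts are no result about the members. With an endothelial UMI required, 1 was lower at E15 and Hspg2 stood at 0.977, and with an arterial gene UMI Lama4 and Hspg2 turned to 1.05 and 1.63. These values describe cells chosen by Cxcl12 and Glul and not arteries.

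Coronary cells with 2 or more UMIs of Esm1, Apln and Kcne3, genes of sprouting tip cells, numbered 520 for P2 and 80 for the adult. The rule pools these genes, while the paper reports that Esm1 and Apln tip cells do not overlap at E12. All coronary cells held 1945 Apln, 384 Kcne3 and 171 Esm1 UMIs at P2, and 225, 26 and 176 in the adult. Of the class, 41 cells at P2 and 33 in the adult were also in the artery class. Cells of the class held more UMIs per cell (medians 6396.5 and 2519) than other coronary cells (4379.5 and 1473). In the adult Nid2 stood at 156 CPM (109.6 to 217) in them and 47.0 CPM (42.0 to 52.4) in other coronary cells, a ratio of 3.33 (2.29 to 4.70). Col15a1 stood at 204 against 97.4 CPM, a ratio of 2.10 (1.53 to 2.82). These were the 2 of 10 members past 2-fold higher (7.15% of all genes). Lama5, with 1 UMI, was the member past 2-fold lower, at 0.181 (0.00456 to 1.02), as were 9.82% of all genes. Col4a1, Col4a2, Lamb1, Lamc1 and Nid1 lay between 1.36 and 1.82 with intervals above 1, and the 10 genes summed to 3241 against 2202 CPM. Other markers moved with the class: endocardial markers summed to 26.1 CPM in it, 3 of 7 with UMIs, against 308 in all coronary cells, and fibroblast or mesenchyme markers to 30.4, 1 of 9 with UMIs, against 722. Of interstitial matrix genes 9 of 15 were past 2-fold lower in the class, with a median ratio of 0.344, and the part of either in the members’ ratios was not tested.

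At P2 the same rule, over a class that may be made up otherwise, gave smaller differences in the same direction for Col15a1, Nid2 and Col4a1. Col15a1 was at 1.61 (1.45 to 1.79), Nid2 at 1.34 (1.23 to 1.46) and Col4a1 at 1.22 (1.18 to 1.27). None of 10 passed 2-fold higher, as did 0.9% of all genes, and Lama5 passed it lower (9.49%), at 1.92 against 8.70 CPM and a ratio of 0.220 (0.0872 to 0.463). Side by side, Lama5 stood above other coronary cells in the P2 artery class and below them in the cells with Esm1, Apln and Kcne3, in comparisons that share most of their other coronary cells. With cells thinned to 500 UMIs the class shrank to 13 cells at P2 and 6 for the adult, and the lower calls of Lama5 were lost at both stages. In the thinned classes, with 6500 UMIs at P2 and 3000 for the adult, 1 and 4 members were past 2-fold higher. The share of all genes is not given, so these counts are no result about the members. At P2 14 of 15 interstitial matrix genes were past 2-fold lower in the class, with a median ratio of 0.147, and endocardial markers summed to 276 CPM against 893 in all coronary cells. At E15, with 57 such cells, no member of 9 passed 2-fold in either direction (6.31% and 10.5% of all genes) and every interval covered 1. At E12, with 17 cells, the same held for the 5 members tested (5.81% and 8.91%).

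**Figure D4:**
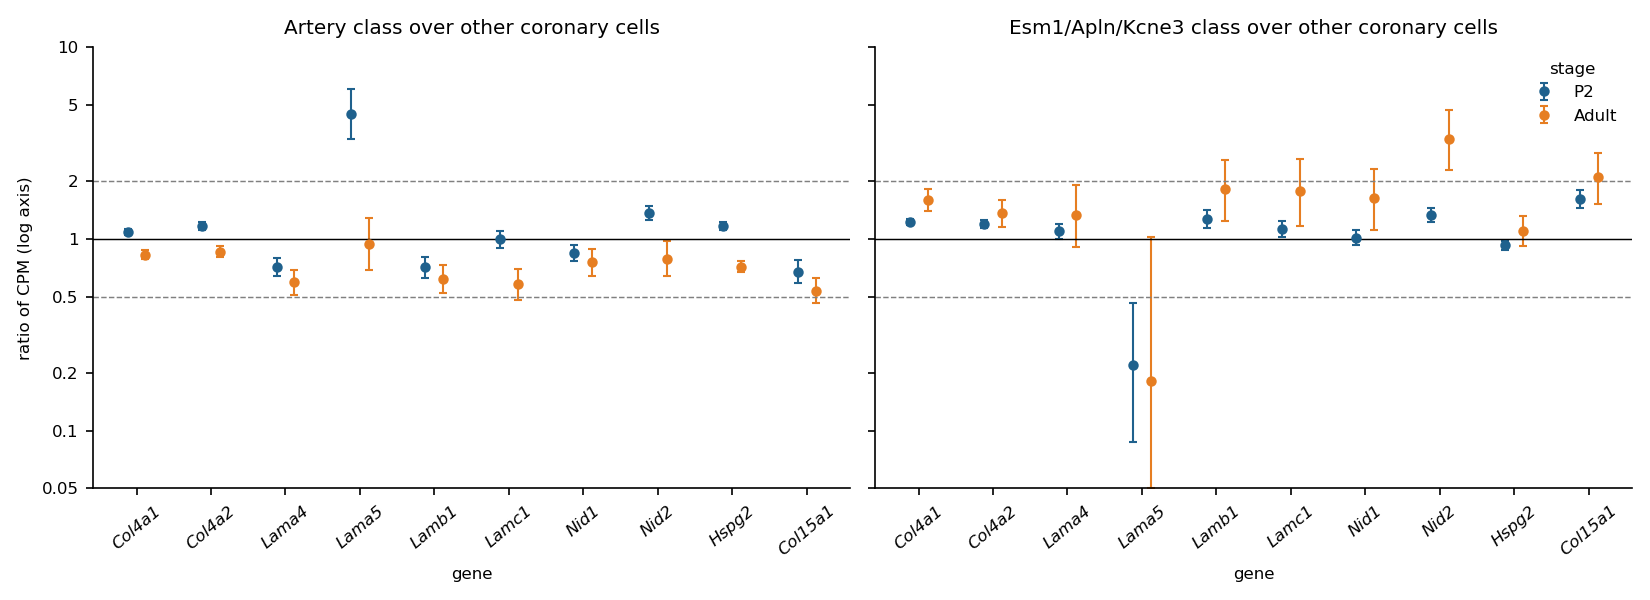
Ratio of CPM (log axis) of the artery class (left) and of coronary cells with 2 or more Esm1, Apln and Kcne3 UMIs (right) over other coronary cells at P2 and in the adult, with 95% counting intervals, the lowest cut at 0.05, and dashed lines at 0.5 and 2. Lama5 lay at 4.47 in the P2 artery class and at 0.220 in the P2 Esm1/Apln/Kcne3 class, and Nid2 at 3.33 for the adult Esm1/Apln/Kcne3 class; the Lama5 calls were lost with cells thinned to 500 UMIs.

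At E12, E15 and in the adult, cells with no endothelial UMI held less collagen IV and perlecan than endothelial cells, and adult ones, of which 75.9% also met the coronary rule, held more Col15a1. At E12 Col4a2 stood at 90.3 CPM in them and 231 in endothelial cells, a ratio of 0.390 (0.345 to 0.441), and its level in empty droplets, 237 CPM, was above that of the non-endothelial cells. Col4a1, Col4a2 and Col15a1 of 10 were past 2-fold lower at E12 (4.85% of all genes) and none was higher (6.74%). At E15 Lama5 was higher (6.6%), at 2.99 (1.39 to 6.55) from 17 and 14 UMIs, and none was lower (2.95%). The class is mixed: at E12 erythroid markers summed to 11609.5 CPM in it and fibroblast or mesenchyme markers to 3036, with 9 of 9 of the latter detected. In the adult Col15a1 stood at 311 CPM against 99.1, a ratio of 3.14 (2.46 to 3.96), the 1 of 10 members past 2-fold higher (12.7%). With cells thinned to 500 UMIs, when 747 cells lacked an endothelial UMI, the adult Col15a1 ratio was 1.19. Col4a2 and Nid2 were past 2-fold lower (13.9%), Nid2 from 3 UMIs. Of the 80 Col15a1 UMIs, 76 came from the 40 cells with 3 or more Col1a1, Col1a2 and Col3a1 UMIs, transcripts of fibroblasts, and 13 from a single cell. In those 40 cells Col15a1 stood at 596 CPM (469.9 to 747), against 31.0 CPM (8.46 to 79.5) in the 92 cells below this limit and with under 20 hemoglobin UMIs. The 13 cells of P2 held 19 Col15a1 UMIs from 4 cells, 284 CPM, and Col15a1 and Nid1 were past 2-fold higher (14.8%) and Hspg2 and Nid2 lower (7.27%), where the median ratio of all genes was 1.15.

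**Figure D5:**
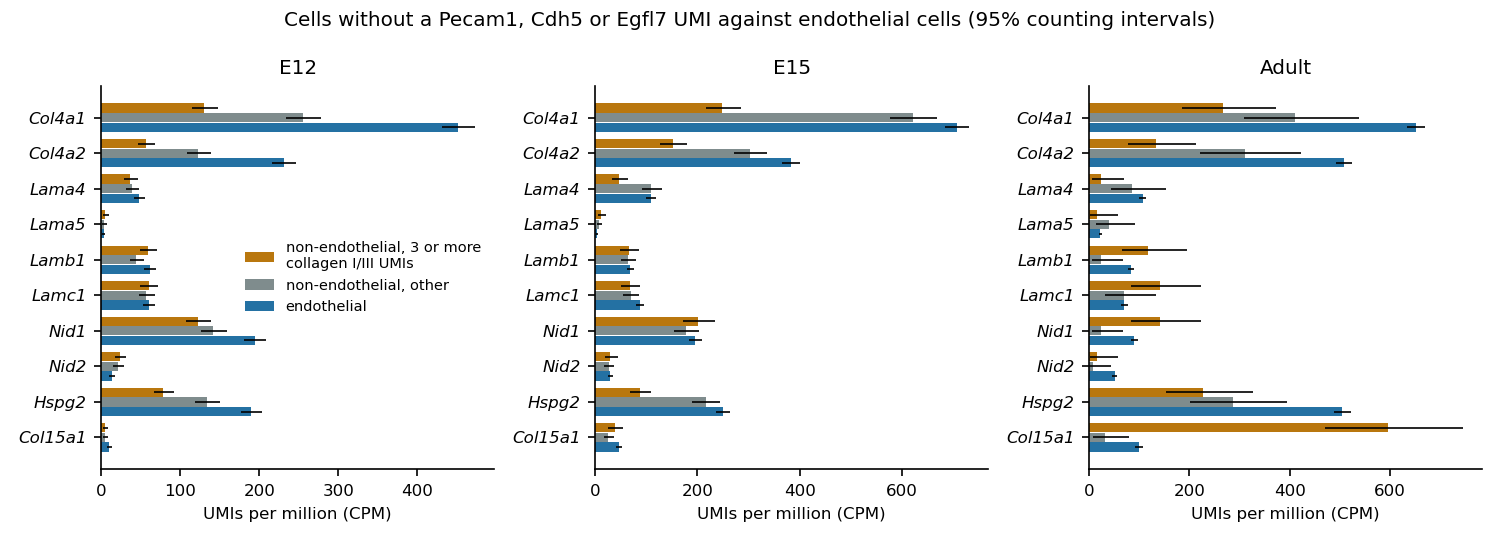
CPM (horizontal axis, from 0) of each gene at E12, E15 and in the adult in cells without a Pecam1, Cdh5 or Egfl7 UMI, split by 3 or more Col1a1, Col1a2 and Col3a1 UMIs, and in cells with an endothelial UMI; bars end in 95% counting intervals. Adult Col15a1 stood at 596 CPM in the first group and 99.1 in endothelial cells, while Col4a1 was highest in endothelial cells at all 3 stages.

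Per cell, the 10 genes gave few UMIs. In cells thinned to 500 UMIs they took a mean of 0.663, 0.877, 0.829 and 0.480 UMIs in endocardial cells over the 4 stages and 0.770, 1.32, 1.27 and 1.25 in coronary cells. Col4a1 was found in 30.1% thinned and 88.7% unthinned of P2 coronary cells and in 21.3% thinned and 77.5% unthinned of P2 endocardial cells. In the adult it was found in 28.4% thinned and 59.8% unthinned of coronary cells, and in 5.33% thinned and 28.0% unthinned of endocardial cells, whose median depth was 2609 UMIs against 1485.

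Other basement membrane parts split between the classes. In coronary against endocardial cells at P2, 3 of 18 were past 2-fold higher and 8 lower, with a median ratio of 0.560. Sparc, a collagen-binding matrix protein, stood at 4147 against 1660.0 CPM, a ratio of 2.50 (2.44 to 2.55), and Tinagl1, a matricellular protein of vessels, at 336 against 121 CPM, a ratio of 2.77 (2.55 to 3.01). Smoc1 and Hmcn1, the latter encoding hemicentin, were endocardial, at 19.3 against 136 CPM, a ratio of 0.142 (0.126 to 0.159), and 150.3 against 679 CPM, a ratio of 0.221 (0.211 to 0.232). In the adult, Col4a3 and Col4a4, which encode the collagen IV chains of another network, stood at 2.50 against 57.5 CPM, a ratio of 0.0436 (0.0199 to 0.0991), and 2.92 against 101 CPM, a ratio of 0.0290 (0.0151 to 0.0559). Adult endocardial cells were thus lower than coronary cells in Col4a1 and Col4a2 and higher in Col4a3 and Col4a4. Within adult endocardial cells the Col4a1 level, from 28 UMIs, was still above those of Col4a3 and Col4a4. From P2 to the adult endocardial Col4a3 went to 57.5 against 1.74 CPM, a ratio of 33.1 (12.8 to 88.9), and Col4a4 to 101 against 3.86 CPM, a ratio of 26.1 (13.4 to 50.7). The adult endocardial values of both rest on 75 cells with 208774 UMIs in all, and their spread over these cells was not tested. In the P2 artery class Lama3 was higher, at 5.32 against 0.402 CPM, a ratio of 13.3 (5.64 to 34.6), as was Col8a1, at 26.4 against 4.47 CPM, a ratio of 5.90 (4.40 to 7.92).

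Of matrix receptors at P2, 3 of 16 were past 2-fold higher and 2 lower in coronary cells, with a median ratio of 0.805. Itga1, an integrin chain that binds collagen IV, stood at 26.5 against 6.18 CPM, a ratio of 4.29. Of genes for collagen folding, crosslinking and export, 3 of 19 were past 2-fold higher and 2 lower, with a median of 0.834. Plod1, a lysyl hydroxylase, was at 151 against 46.7 CPM, a ratio of 3.22 (2.83 to 3.69), and P3h1, a prolyl hydroxylase, at 25.9 against 60.8 CPM, a ratio of 0.426 (0.371 to 0.489). Of matrix proteases and inhibitors, 5 of 19 were past 2-fold higher and 3 lower. Timp4, a protease inhibitor, was at 87.4 against 3.47 CPM, a ratio of 25.2 (15.9 to 42.5), and Mmp2, a gelatinase that cleaves collagen IV, at 56.5 against 179 CPM, a ratio of 0.316 (0.290 to 0.344). Of interstitial matrix genes at P2, 0 of 15 were past 2-fold higher and 12 lower in coronary cells, with a median of 0.286, among them Dcn at 142 against 643 CPM, a ratio of 0.221 (0.211 to 0.232). The list was also past 2-fold higher for 12 of 15 genes in the 13 non-endothelial cells of P2, fibroblast or mesenchyme markers moved with it as given above, and Col1a1 was lower in endocardial than in coronary cells at P2 (11.8 against 17.3 CPM). Their part was not tested. From P2 to the adult in coronary cells, the protease Mmp14, which activates Mmp2, went down to 16.8 against 148 CPM, a ratio of 0.114 (0.0942 to 0.137), and Timp3 went up to 835 against 287 CPM, a ratio of 2.91 (2.81 to 3.02), while 1 of 19 were past 2-fold higher and 3 lower among collagen folding, crosslinking and export genes. All-gene shares past 2-fold are those given above for the same comparisons.

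Over the 12 profiles of endocardial, coronary and non-endothelial cells at 4 stages, which share libraries and depth, the members moved together only in part. Col4a1 and Col4a2 were the closest pair (Pearson correlation of log2(CPM + 10) 0.958), and Lamb1 and Lamc1 reached 0.776. The correlation of a member with the mean of the others was 0.796 for Col4a2, 0.780 for Col4a1 and 0.708 for Lamc1, and 0.134 for Nid1 and 0.0274 for Lama5. Among 8928 genes at 20 CPM or more in at least 1 profile, the non-members closest to the mean of the 10 were BC028528 (0.958), Smox (0.930), Litaf (0.913), Gprc5b (0.907), Rell1 (0.901) and Stim2 (0.899). The P2 non-endothelial profile rests on 13 cells, 11 of them also coronary, and Gprc5b was highest in it, at 44.8 CPM. Of the 133 adult non-endothelial cells 101 were also coronary, so the profiles share cells. These correlations describe the profiles and were not tested.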

How the data were processed

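RNA of single CD31+/CD45- mouse heart cells was counted in 1 library per stage (E12, E15, P2, adult), made with 10x Genomics 3′ v2 droplets. The authors deposited UMI counts per gene and barcode. The submitters’ processing notes name Cell Ranger 2.2 and the build mm10, and the strand setting is not given in the sources used here. The E12 table also held empty barcodes, and its cells were taken above a UMI minimum, which kept 88.7% of its UMIs. Total UMIs were 8122358 (E12), 7079759 (E15), 29645059 (P2) and 7650091 (adult).

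UMIs were summed per marker-defined class. CPM carry exact Poisson intervals, ratios exact conditional binomial intervals and shares exact binomial intervals, all at 95% and for counting error only. Genes with 20 or more UMIs over both classes were compared, with no test, since each stage has 1 library. Doublets were kept in the main values and removed by a simulated-doublet score in an alternative. Alternatives also changed depth, class limits, weighting, scaling and the UMI minimum, and 2 were added after the data were seen. Named genes were the members, at most 3 genes per pathway list and direction past 2-fold, class markers, and the 6 genes closest to the members’ mean. Members and lists were chosen with earlier results of these data known. Scripts were tested on simulated data and used Python 3.11.15, numpy 2.4.6, scipy 1.17.1, pandas 2.3.3, scikit-learn 1.9.0 and matplotlib 3.10.9.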

Additional observations from a re-analysis of the deposited data

Results flagged for a closer look

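Col4a1, Col4a2, Hspg2, Nid1 and Nid2 were singled out because their artery over other coronary ratios had counting intervals on opposite sides of 1 at different stages. None of these differences between stages was tested against replicates, as each stage is 1 library, and the E12 and E15 values come from Cxcl12/Glul cells that mostly lacked endothelial UMIs. The Col4a1 ratio was 1.09 for P2, against 0.302 for E12, 0.659 for E15 and 0.827 for the adult. The Col4a2 ratio was 1.17 for P2, against 0.234, 0.635 and 0.857 for the same other stages. Hspg2 behaved alike, with 1.17 for P2 against 0.381, 0.489 and 0.715. Nid2 stood at 1.37 for P2 and 0.790 for the adult. Nid1 was above 1 among E15 cells only, at 1.81, against 0.651 for E12, 0.842 for P2 and 0.754 for the adult.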

How the results depend on the processing

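No paired analysis was possible because every stage is 1 library and all replicate numbers are 1. Counts of members past 2-fold are given as main value, then alternative. Shares of all genes under the alternatives are not given here, so no count under an alternative is read against its background. With every cell thinned to 500 UMIs before classes were set, artery counts changed from 4 to 0 lower for E12, 0 to 4 higher and 4 to 0 lower for E15, 1 to 0 higher and 0 to 2 lower for P2, and 0 to 1 lower for the adult. Non-endothelial counts changed from 1 to 0 higher for E15, 2 to 0 higher and 2 to 0 lower for P2, and 1 to 0 higher and 2 to 0 lower for the adult. Esm1/Apln/Kcne3 counts changed from 0 to 1 higher for E15, 0 to 1 higher and 1 to 0 lower for P2, and 2 to 4 higher and 1 to 0 lower for the adult. Stage counts changed in coronary cells from 0 to 2 lower for E15 over E12 and 1 to 0 higher for P2 over E15, and in endocardial cells from 2 to 1, 1 to 0 and 1 to 0 higher over the 3 steps. Under thinning Col15a1 in non-endothelial cells of P2 reversed to 0.844, as 1450 cells instead of 13 then lacked an endothelial UMI, and E15 over E12 coronary ratios reversed to 0.756 for Lama4 and 0.608 for Nid2, from 29 E12 cells with 2 UMIs of each.

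With an endothelial UMI required, the artery counts of E15 went from 0 to 1 higher and 4 to 1 lower, non-endothelial ones from 0 to 1 lower for E15 and 2 to 5 lower for the adult, and endocardial ones from 0 to 1 lower for E15 over E12, 1 to 2 higher and 0 to 1 lower for P2 over E15. Stricter classes moved coronary over endocardial for E12 from 2 to 0 higher, artery from 0 to 1 higher and 4 to 2 lower for E15 and 0 to 1 lower for the adult, the Esm1/Apln/Kcne3 class from 0 to 1 lower for E15, and endocardial E15 over E12 from 2 to 0 higher. With no UMI minimum, counts went from 0 to 1 lower in coronary over endocardial for E15, the Esm1/Apln/Kcne3 class for E12 and coronary E15 over E12, and from 0 to 1 higher in artery for E15. Equal weight of cells gave 0 to 1 lower in artery and 2 to 1 lower in non-endothelial cells for the adult. Division by the median ratio gave 2 to 1 higher in non-endothelial cells of P2 and 0 to 1 lower in endocardial P2 over E15. The study’s cell limits with the doublet score gave 0 to 1 lower in adult artery and in endocardial P2 over E15. Of the 2 alternatives chosen after seeing the data, 5 coronary UMIs per 1000 moved none of 22 counts by over 1.5 times but took 22 of 107 single-gene ratios outside their main interval. Thinning did so for 81 of 157 ratios and reversed 3. An arterial gene UMI in artery cells gave 0 to 1 higher and 4 to 0 lower for E15, where Lama4 and Hspg2 reversed to 1.05 and 1.63 in 11 cells, and 0 to 3 lower for the adult. Except where a cell number is given, the cause was not tested. At E12 and E15 Lama5 had under 20 UMIs over coronary and endocardial cells and was not compared.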

Other observations

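The laminin β chains also differed between coronary classes, a pair chosen after its values were seen. Lamb2, which encodes the β2 chain, took 55.3% (51.3 to 59.3) of Lamb1 and Lamb2 UMIs in the P2 artery class and 32.3% (30.6 to 34.1) in other coronary cells. In the adult the shares were 63.9% (60.1 to 67.5) and 51.9% (48.2 to 55.5). Intervals did not overlap at either stage.

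Among thinned P2 coronary cells, Nid2 was found in 5.62% (3.47 to 8.54) of cells with a Nid1 UMI and 6.44% (5.72 to 7.22) of cells without one.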
